A study of Homo sapiens with 18 samples.

Results

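MYC occupancy was examined at the promoters of 10 genes of nucleotide and polyamine synthesis: CAD, TYMS, PPAT, PAICS, GART, ATIC, IMPDH2, ODC1, SRM and AMD1. The genes were chosen by function, with earlier results of these data known. A peak was counted for a gene when it overlapped the 2 kb on either side of the start. PPAT and PAICS share a promoter, so there were 9 windows, and these held 16 of the 43222 merged MYC regions of the series. The measurements come from chromatin immunoprecipitation and sequencing (ChIP-seq) of MYC in MCF10A, an immortalised and non-tumorigenic breast epithelial line. All cells compared here carried ectopic MYC (plasmid pBABE-hygro-MYC) and ectopic PI3KH1047R (plasmid pMN-IRES-GFP-PI3KH1047R), an activated form of the PI3K catalytic subunit. They also carried a doxycycline-inducible hairpin in a pLKO-tetON-puro plasmid, and all received 2 µg/mL doxycycline for 72 h. The control group expressed a scrambled hairpin (shSCR), and the other groups expressed shG9a_1 or shG9a_4, hairpins against the histone methyltransferase G9a. Each group had 3 libraries, which the series design calls biological replicates, made with the MYC antibody N262. The level of G9a itself cannot be read from peak lists, and ectopic MYC cannot be told apart from endogenous MYC in them.

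MYC is a transcription factor that, with its partner MAX, binds DNA at E-boxes, with a preference for the hexamer CACGTG, and it is found at the promoters of many genes for growth and biosynthesis. Cells make purine and pyrimidine nucleotides in long enzymatic routes, needed for RNA and DNA, and make polyamines from ornithine and decarboxylated S-adenosylmethionine. ODC1 and CAD are among the longest known MYC target genes.

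The sequences around the E-boxes are shown because several had offsets from a start near those of MYC summits. The starts are of different builds and were not converted. RefSeq promoters (GRCh38.p14, from 250 bases before to 50 after each annotated start) were found for 9 of the 10 genes, all except IMPDH2. CACGTG, which reads the same on both strands, was present in 5 of these 9 genes (SRM, ODC1, ATIC, PPAT and PAICS), against 8.77% of 27305 genes in the table. PPAT and PAICS share 1 hexamer, which lies upstream of the PPAT start and just inside PAICS. ODC1 and ATIC each held 2 hexamers in 1 window, as did 0.791% of all genes. The windows of CAD, GART, AMD1 and TYMS did not hold these letters. Of the other hexamers searched on both strands, CACGCG occurred in ODC1 (13.5% of all genes), where overlapping copies on opposite strands were counted separately, and CATGTG in PAICS (13.4%), there at another annotated start, far upstream of the promoter shared with PPAT. CATGCG (8.47%) and CACGAG (8.18%) occurred in none of the 9. The first pair of sequences below gives the 250 bases upstream of the start in SRM and ATIC, and the others give 30 bases around a hexamer. Each is written 5′ to 3′ on the strand of the named gene, with CACGTG in capitals.
SRM upstream, chr1:11060019-11060268, minus strand: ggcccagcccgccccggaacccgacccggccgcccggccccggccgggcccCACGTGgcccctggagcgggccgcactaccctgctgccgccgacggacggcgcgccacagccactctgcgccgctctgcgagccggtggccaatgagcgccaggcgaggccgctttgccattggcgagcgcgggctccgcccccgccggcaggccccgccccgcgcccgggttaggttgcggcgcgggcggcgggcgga
ATIC upstream, chr2:215311809-215312058, plus strand: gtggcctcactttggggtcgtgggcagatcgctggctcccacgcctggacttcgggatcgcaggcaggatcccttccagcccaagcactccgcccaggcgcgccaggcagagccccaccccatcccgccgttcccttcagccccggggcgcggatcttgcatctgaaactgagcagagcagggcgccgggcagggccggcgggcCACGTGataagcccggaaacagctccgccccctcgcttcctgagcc
ATIC second hexamer, chr2:215312076-215312105, plus strand: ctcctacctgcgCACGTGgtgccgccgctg
ODC1 first hexamer, chr2:10448024-10448053, minus strand: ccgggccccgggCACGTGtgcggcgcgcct
ODC1 second hexamer, chr2:10447990-10448019, minus strand: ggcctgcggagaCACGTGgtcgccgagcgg
PPAT, chr4:56435780-56435809, minus strand: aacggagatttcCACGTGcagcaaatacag
In SRM the hexamer begins at −199 from the annotated start, and in ATIC hexamers begin at −46 and +30. The ODC1 hexamers begin 286 and 320 bases downstream of the first of the gene's 2 annotated starts. The PPAT hexamer begins at −182, which is +41 counted from the PAICS start nearest to it. A match is a description of letters and not evidence of binding.

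The 9 libraries differed in ways that touch every height given here. On chromosomes 1 to 22 and X the lists held 20118 to 34738 peaks in shSCR, 11168 to 17454 in 5 shG9a libraries and 113 in shG9a_1 replicate 1. Read depth was not listed. Depth recovered from the peak values, relative to the shSCR mean, was 0.926 to 1.04 in shSCR and 0.84 to 1.09 in shG9a_1 replicates 2 and 3 and shG9a_4 replicate 2. It was 1.90 and 2.65 in shG9a_4 replicates 1 and 3. Because shG9a_1 replicate 1 stands so far apart, it enters counts of calls but no comparison of heights.

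MYC was called at all 9 promoters in every library other than shG9a_1 replicate 1. In each of the 3 shSCR libraries, both remaining shG9a_1 libraries and all 3 shG9a_4 libraries, 9 of 9 windows held a peak, with 13 to 18 peaks in all. A window is wider than a region and can hold several. Counted by region, 8 of the 16 in these windows were called in all 8 of these libraries, against 12.1% of 43222 in the whole series, and the TYMS window held a peak in shG9a_1 replicate 3 through a different region. In shG9a_1 replicate 1 SRM alone had a peak, where 0.767% of the 14209 regions called in all 3 shSCR libraries (32.9% of all merged regions) did. That SRM peak had the authors' fold enrichment of 6.44, ranked 83 of 113 by q-value and was 100 bp wide.

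A region called in all 3 shSCR libraries was termed kept when at least 5 of 6 shG9a libraries called it, lost when none did, and partial otherwise. The main region was kept at 8 promoters and partial at TYMS, and none was lost, against 36.9% kept, 53.6% partial and 9.49% lost among all 14209 regions. These regions were strong in shSCR, and strength tracked the kept share. CAD, ODC1, SRM, AMD1, PPAT/PAICS, GART and ATIC were in decile 10, the strongest, when regions were ranked by the mean percentile of their best peak in the shSCR lists, and 99.2% of that decile was kept. IMPDH2 was in decile 9, where 90.8% was kept, and TYMS in decile 8, where 67.8% was kept. Read against regions of like strength, the members' calls were close to the background and are not a result about these genes. A second reproducible region in the AMD1 window, from −980 to 97 bp of the start, was in decile 1, the weakest. It was called in 3 shSCR libraries and in shG9a_4 replicate 2, and so was partial; in that decile 0.775% of regions were kept. The remaining 6 regions were each called in 1 to 3 libraries.

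**Figure D1:**
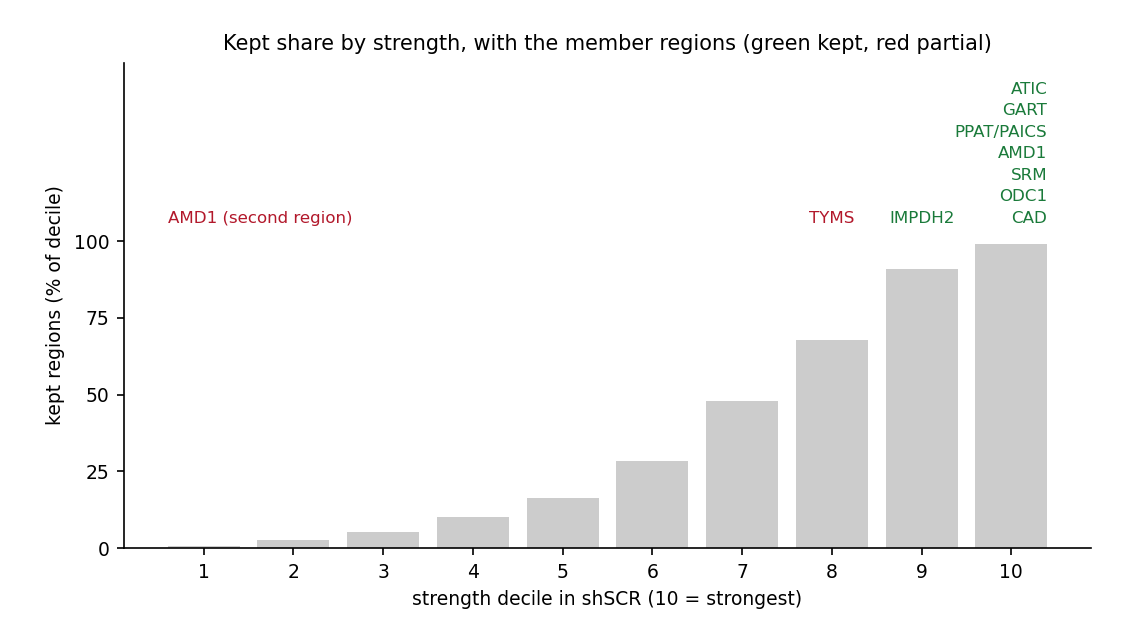
Share of shSCR-reproducible MYC regions kept in at least 5 of 6 shG9a libraries (y axis, percent) in each decile of strength in shSCR (x axis, 10 is strongest). Names above the bars mark the decile of each reproducible region in the 9 windows, in green where kept and in red where partial; 7 promoters stand in decile 10, where 99.2% of regions were kept.

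Each promoter is described below by its strongest peak. The fold is the authors' value in each list, the pileup with 1 added over the local background with 1 added. Ranks are by q-value within 1 list, so ranks from lists of unlike length show no change. Height is the recovered pileup, the number of fragments over the summit, divided by the background of its library. Relative height is the pileup over the median pileup of the 5245 regions called in all 8 libraries, so that a value of 1 is the typical common region. The median fold of these regions was 12.3 to 15.4 in shSCR and 7.88 to 10.9 in the shG9a libraries, without overlap. The share of regions separated in fold was not counted, so whether a separation in fold below is particular to a promoter cannot be told. Values are given for replicates 1, 2 and 3 of shSCR, replicates 2 and 3 of shG9a_1, and replicates 1, 2 and 3 of shG9a_4, in that order.

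Among the pyrimidine genes, CAD encodes the enzyme that carries out the opening steps of pyrimidine synthesis. Its MYC region lay on chromosome 2 at 27440097 to 27440855 (hg19, as for all peak positions here), across the start. The shSCR folds were 17.6, 35.0 and 35.1, the shG9a_1 folds 20.4 and 34.9, and the shG9a_4 folds 18.1, 25.6 and 21.1. The peak ranked 1041 of 29827, 261 of 34738 and 160 of 20118 in shSCR, and 65 to 349 in the shG9a lists. Height was 87.1, 141 and 132 in shSCR against 78.4, 108, 40.2, 83.9 and 51.4, and shSCR replicate 1 fell below shG9a_1 replicate 3, so the groups overlapped. Relative height was 1.63, 2.23 and 2.57 in shSCR and 2.23, 3.06, 1.78, 2.00 and 2.30 in shG9a, an overlapping range with its highest value in shG9a_1 replicate 3. CAD thus stood at 1.63 to 3.06 times the typical common region over the 8 libraries.

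TYMS, which makes thymidylate for DNA synthesis, had the lowest mean fold of the 9 promoters in shSCR. Its main region was on chromosome 18 at 657304 to 658028. Folds were 13.4, 10.5 and 10.9 for shSCR, 6.82 and 4.98 for shG9a_1, then 7.24, 6.09 and 5.54 for shG9a_4, and all 5 shG9a values lay below the shSCR values. The 4.98 of shG9a_1 replicate 3 belongs to a peak outside the main region, with its summit 666 bp downstream of the start; that library listed no peak in the main region. By rank the TYMS peak stood at the 79.1 to 89.1 percentile of the shSCR lists and at the 13.8 to 59.4 percentile of the 5 shG9a lists. The 13.8 belongs to that peak outside the main region. The median common region also stood lower in the shG9a lists, at 73.2 to 83.3 against 85.7 to 91.7 in shSCR. Height was 46.9, 41.0 and 36.8 in shSCR against 27.0, 14.5, 16.3, 16.8 and 10.7 in shG9a. Relative height was 0.875, 0.645 and 0.714 in shSCR and 0.769, 0.412, 0.722, 0.400 and 0.478 in shG9a. On this scale the groups overlapped, since shG9a_1 replicate 2 and shG9a_4 replicate 1 lay within the shSCR range. The height of 14.5 and the relative height of 0.412, of shG9a_1 replicate 3, also belong to the peak outside the main region. The pileups were 7 to 13 fragments in the shG9a libraries, so 1 fragment moves these values noticeably. TYMS was not among the 5245 regions and was fitted only in a wider set, given below. An antisense gene, TYMSOS, overlaps TYMS on the opposite strand, so a peak here cannot be assigned to either one.

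Of the purine genes, PPAT catalyses the committed step of purine synthesis and PAICS a pair of later steps, and the genes are transcribed in opposite directions from a shared promoter. This region ranked highest of the 9 by percentile within the shSCR lists, with a mean of 99.6, and lay on chromosome 4 at 57301062 to 57302996. The shSCR libraries gave folds of 40.5, 38.1 and 35.8, the shG9a_1 libraries 18.0 and 32.2, and the shG9a_4 libraries 15.2, 22.0 and 18.8. Every shG9a value was below every shSCR value, as was so for the median fold of the common regions. Ranks were 80 to 106 in shSCR and 79 to 301 in shG9a. Height was 145, 193 and 157 in shSCR and 75.7, 108, 60.3, 117 and 58.2 in shG9a, again without overlap. Relative height overlapped, at 2.71, 3.03 and 3.05 in shSCR and 2.15, 3.06, 2.67, 2.80 and 2.61 in shG9a, with shG9a_1 replicate 2 lowest and shG9a_1 replicate 3 highest.

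GART encodes an enzyme with 3 activities in the same route, and its region lay on chromosome 21 at 34914044 to 34915811. Folds were 16.5, 32.4 and 19.9 for shSCR, 18.2 and 11.7 for shG9a_1, then 14.4, 27.2 and 14.8 for shG9a_4, so the groups overlapped. Relative height was 1.96, 1.77 and 1.43 in shSCR and 2.08, 1.88, 1.61, 2.00 and 1.57 in shG9a. The ranges nearly coincided, with shSCR replicate 3 lowest and shG9a_1 replicate 2 highest. Height was 105, 113 and 73.5 in shSCR and 73.0, 66.4, 36.4, 83.9 and 34.9 in shG9a, and shG9a_4 replicate 2 exceeded shSCR replicate 3. The gene SON lies next to GART on the other strand, so peaks upstream of GART cannot be assigned to 1 gene.

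ATIC carries out the last steps to inosine monophosphate, and its region on chromosome 2 at 216176408 to 216177249 was a single peak in each of the 8 libraries other than shG9a_1 replicate 1. Folds were 31.9, 32.1 and 34.3 for shSCR, 28.5 and 23.5 for shG9a_1, then 16.9, 30.9 and 18.2 for shG9a_4, with all shG9a values below the shSCR values. Ranks were 124 to 152 in shSCR and 61 to 285 in shG9a. Height was 141, 195 and 152 in shSCR against 105, 106, 55.3, 113 and 56.3 in shG9a. Relative height was 2.63, 3.07 and 2.95 in shSCR, 3.00 in both shG9a_1 libraries, and 2.44, 2.70 and 2.52 in shG9a_4. The shG9a_1 libraries lay inside the shSCR range, and shG9a_4 replicates 1 and 3 lay below it.

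IMPDH2 converts inosine monophosphate towards guanine nucleotides, and its region lay on chromosome 3 at 49066306 to 49066978. Folds were 15.9, 16.7 and 18.8 for shSCR, 13.8 and 11.1 for shG9a_1, then 5.28, 8.69 and 10.2 for shG9a_4, and no shG9a value reached shSCR. In shG9a_4 replicate 1 the peak ranked 6405 of 11168 with a −log10 q of 6.02, the lowest of the 8 libraries. The local background the caller used there was 2.22, against 0.796 for that library as a whole, and it was 1.99 and 1.75 in the other shG9a_4 libraries and 0.45 to 0.956 in shSCR and shG9a_1. The part of this local background in the fold was not tested. Relative height, which does not use it, was 1.25, 0.968 and 1.29 in shSCR and 1.46, 1.06, 0.889, 1.25 and 1.17 in shG9a. On that scale the groups overlapped, and IMPDH2 stood close to the typical common region.

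The polyamine genes begin with ODC1, ornithine decarboxylase, the rate-limiting enzyme that makes putrescine. Its region lay on chromosome 2 at 10587705 to 10589163. The gene ODC1-DT lies next to ODC1 on the other strand, so peaks upstream of ODC1 cannot be assigned to 1 gene. The shSCR libraries gave folds of 40.9, 50.9 and 25.9, the shG9a_1 libraries 15.7 and 12.7, and the shG9a_4 libraries 17.3, 28.4 and 20.0, where shG9a_4 replicate 2 exceeded shSCR replicate 3. The peak ranked 83, 83 and 309 in the shSCR lists, then 456 and 1160 with shG9a_1 and 202, 186 and 339 with shG9a_4. Height was 141, 170 and 130 in shSCR and 70.3, 56.0, 56.5, 105 and 47.5 in shG9a, without overlap. Relative height was 2.63, 2.68 and 2.52 for shSCR, 2.00 and 1.59 for shG9a_1, then 2.50, 2.50 and 2.13 for shG9a_4. All 5 shG9a libraries lay below all 3 shSCR libraries on this scale too, although shG9a_4 replicates 1 and 2, at 2.50, were close to the lowest shSCR value of 2.52. ODC1 was the 1 promoter of the 8 tested with such a separation, and 2.36% of all 5245 regions were separated downward and 3.03% upward.

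SRM, spermidine synthase, adds the aminopropyl group that turns putrescine into spermidine. Its region on chromosome 1 at 11119067 to 11120783 was the only one of the 9 called in all 9 libraries. Folds were 28.1, 48.1 and 39.1 for shSCR, 6.44, 18.3 and 34.4 for shG9a_1 replicates 1, 2 and 3, then 19.6, 25.1 and 32.4 for shG9a_4. Its rank was 247, 99 and 109 in the shSCR lists, 218 and 69 with shG9a_1 replicates 2 and 3, then 172, 207 and 82 with shG9a_4. The groups overlapped in fold. Height was 121, 166 and 132 in shSCR against 91.9, 104, 54.0, 113 and 64.0 in the 5 shG9a libraries, without overlap. It was 24.9 in shG9a_1 replicate 1, from a pileup of 9 fragments. Relative height overlapped, at 2.25, 2.61 and 2.57 in shSCR and 2.62, 2.94, 2.39, 2.70 and 2.87 in shG9a. Of the shG9a values 4 of 5 exceeded every shSCR value, although shG9a_1 replicate 2, at 2.615, was level with shSCR replicate 2 at 2.613. The share of all regions with such a pattern was not counted.

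AMD1, S-adenosylmethionine decarboxylase, supplies the aminopropyl donor for that step. Its main region lay on chromosome 6 at 111196416 to 111197890, downstream of the start. Folds were 18.4, 20.8 and 24.2 for shSCR, 9.91 and 12.8 for shG9a_1, then 15.7, 17.8 and 18.2 for shG9a_4, all below shSCR. Height was 78.1, 84.0 and 90.7 in shSCR and 48.6, 43.6, 41.5, 65.0 and 40.7 in shG9a. On the relative scale these were 1.46, 1.32 and 1.76 for shSCR, 1.38 and 1.24 for shG9a_1, then 1.83, 1.55 and 1.83 for shG9a_4. With shG9a_1, 1.38 lay inside the shSCR range and 1.24 under it. With shG9a_4, 1.55 lay inside that range and the values of 1.83 above it. The difference between the hairpins did not pass the test given below.

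**Figure D2:**
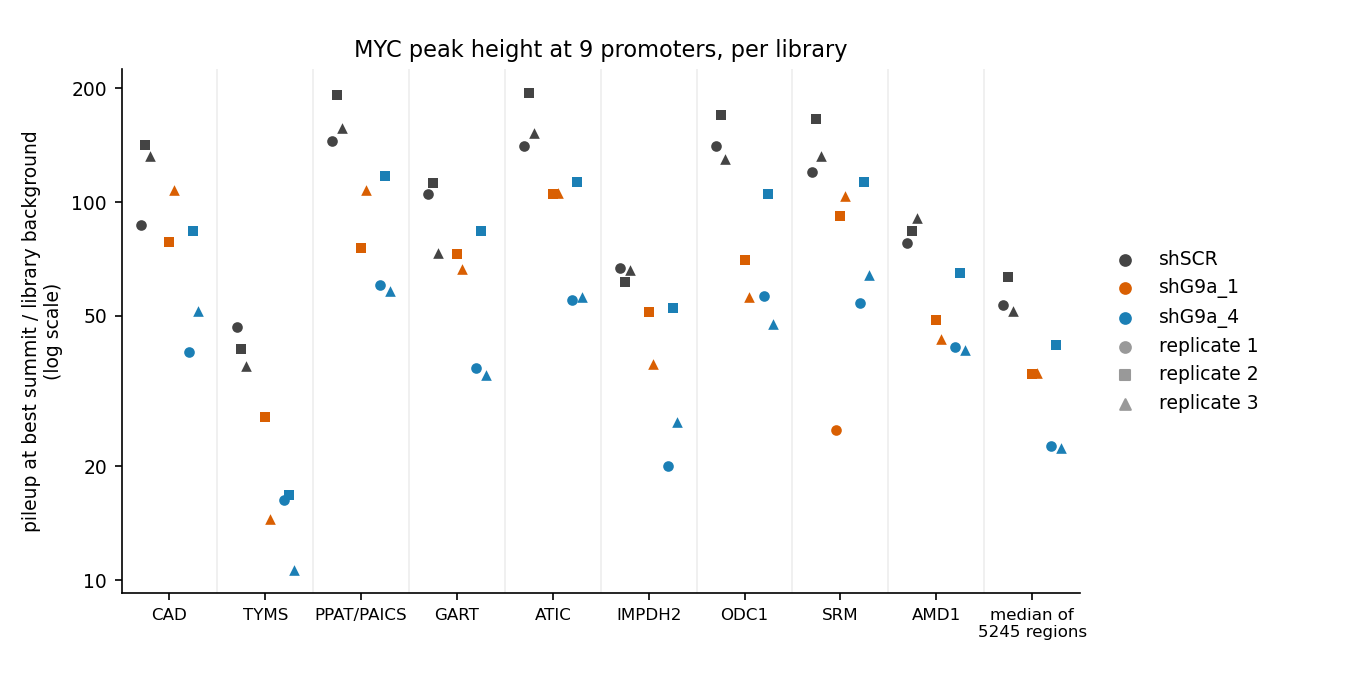
Recovered pileup at the strongest peak over the library background (y axis, log scale, no unit) for the 9 promoters and, at the right, the median of the 5245 common regions; each point is 1 library, coloured by hairpin and shaped by replicate. The shG9a points lie below the shSCR points at most promoters and also at the median (22.3 to 41.9 against 51.5 to 63.5); the lone low SRM point is shG9a_1 replicate 1, and the TYMS point of shG9a_1 replicate 3 is from the peak at 666 bp.

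Whether hairpins against G9a went with a change in MYC height at these promoters, beyond that over all regions, was tested first. The difference was fitted with limma on log2 relative height over the 5245 common regions, which include 8 of the 9 promoters, and p-values were adjusted by Benjamini-Hochberg over all of them. No promoter passed the threshold of 0.05 in the contrast of both hairpins with shSCR (0 of 8, limma adjusted p 0.440 to 0.999). Among all regions, meaning these 5245, 3 were lower (0.0572%) and 20 higher (0.381%). These are the kept regions, 36.9% of the 14209 called in all 3 shSCR libraries. Regions that any of the 8 libraries did not list were outside this test and its centring, so the counts do not cover binding that fell below the calling limit. Differences ran from −0.34 in ODC1 to 0.13 in SRM on the log2 scale, with a median of 0.01 against −0.01 for all regions. At an unadjusted p under 0.05 there was 1 of 8, ODC1, where 9.67% of all regions were under that limit.

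ODC1 differed by −0.34 ± 0.15 (log2, SE; 95% interval −0.65 to −0.04; limma adjusted p = 0.440), and 7.8% of all regions had a lower value. In shG9a_1 alone the ODC1 difference was −0.55 ± 0.19 (interval −0.93 to −0.17; limma adjusted p = 0.283), lower than in all but 3.3% of regions. In shG9a_4 it was −0.14 ± 0.17 (interval −0.48 to 0.20; limma adjusted p = 0.885). The ODC1 result therefore did not pass the test over all regions, although 5 of 5 shG9a libraries were in the same direction.

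The intervals at the other promoters limit how large a relative change could have gone unseen. For CAD, both hairpins against shSCR gave 0.13 ± 0.16 (interval −0.20 to 0.46), for PPAT/PAICS −0.15 ± 0.15 (−0.45 to 0.14) and for GART 0.11 ± 0.17 (−0.23 to 0.45). ATIC gave −0.05 ± 0.14 (−0.34 to 0.23), IMPDH2 0.01 ± 0.20 (−0.39 to 0.41), SRM 0.13 ± 0.15 (−0.16 to 0.42) and AMD1 0.00 ± 0.18 (−0.36 to 0.36). Differences inside these intervals were not resolved with these libraries, and the test does not show that the 7 promoters were unchanged. Within single hairpins the differences ran from −0.55 in ODC1 to 0.31 in CAD for shG9a_1, and from −0.17 in ATIC to 0.20 in AMD1 for shG9a_4. None of 8 passed in either (limma adjusted p 0.283 to 0.947 and 0.835 to 0.995), with ODC1 in shG9a_1 and no promoter in shG9a_4 at an unadjusted p under 0.05. That limit was met by 8.39% of all regions with shG9a_1 and by 9.11% with shG9a_4. Among all regions 1 was lower (0.0191%) and 4 higher (0.0763%) with shG9a_1, and 2 (0.0381%) and 18 (0.343%) with shG9a_4. The contrasts share the 3 shSCR libraries and are not separate evidence.

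**Figure D3:**
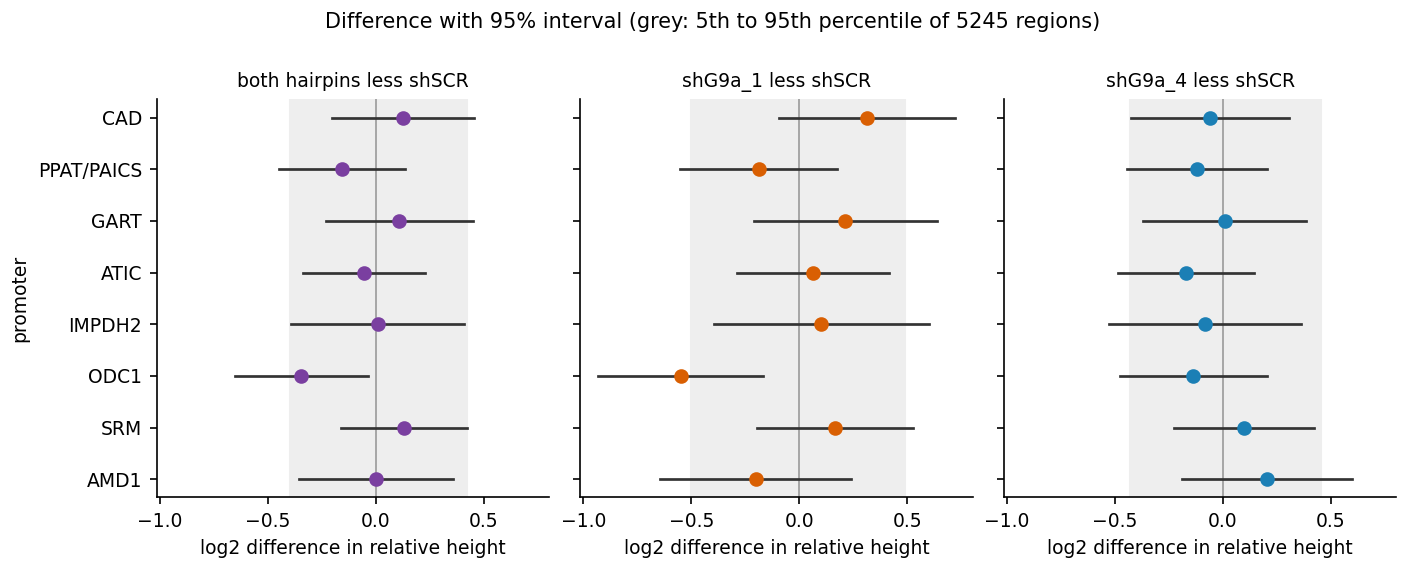
Difference in log2 relative height from shSCR at the 8 promoters fitted (x axis, log2), for both hairpins and for each alone; points are limma estimates, lines their 95% intervals, and grey bands the 5th to 95th percentile of all 5245 regions. ODC1 is the 1 promoter whose interval leaves out 0 for both hairpins (−0.65 to −0.04) and for shG9a_1 (−0.93 to −0.17).

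The hairpins were also compared with each other. None of the 8 promoters differed between shG9a_1 and shG9a_4 past the threshold (limma adjusted p 0.695 to 0.974), nor did any of the 5245 regions. Under the alternatives run for this contrast, chosen after the data were seen, no promoter passed either, while 2 of the 5245 regions were lower with the replicate block and 1 without shG9a_4 replicate 1. ODC1, with −0.41 for shG9a_1 less shG9a_4, was the 1 promoter of 8 at an unadjusted p under 0.05, where 6.56% of all regions were.

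TYMS was fitted in the wider set of 7423 regions called in all 3 shSCR libraries and in at least 4 of 5 shG9a libraries, with shG9a_1 replicate 3 missing. Its relative height differed by −0.27 ± 0.26 (log2, SE; interval −0.78 to 0.23; limma adjusted p = 0.785) for both hairpins. For shG9a_1 alone, with 1 library, it was −0.03 ± 0.36 (interval −0.75 to 0.69; limma adjusted p = 0.986). For shG9a_4 alone it was −0.52 ± 0.26 (interval −1.03 to −0.01; limma adjusted p = 0.593), which did not pass. Its unadjusted value was under 0.05, as were those of 8.24% of the 7423 regions. A region enters this set only with a peak listed in nearly every library, which leaves out the lowest values.

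Without centring on the common regions each of the 8 promoters was lower in the contrast of both hairpins with shSCR. Median height over all 5245 regions differed by −0.85 (log2) between both hairpins and shSCR, by −0.66 with shG9a_1 and by −1.02 with shG9a_4. The 8 promoters differed by −1.19 (ODC1) to −0.71 (SRM), and 8 of 8 passed (limma adjusted p 0.0053 to 0.0402), as did 71.4% of all regions, all of them lower. Their median of −0.84 was close to that of all regions. On this scale 6 of 8 promoters (ODC1, SRM, AMD1, IMPDH2, PPAT/PAICS and ATIC) had no overlap between the 5 shG9a and 3 shSCR libraries, as did 56.1% of all regions. With shG9a_1 alone 0 of 8 passed (limma adjusted p 0.106 to 0.440), as did 0% of all regions. At an unadjusted limma p under 0.05 there were 3 of 8 promoters, where 30% of all regions were under that limit. With shG9a_4 alone 8 of 8 passed (83.6% of all regions). Both the deepest libraries, shG9a_4 replicates 1 and 3, had the lowest median heights, 22.6 and 22.3. Depth and height both use the recovered library background, so a high background raises the first and lowers the second. Median pileups of these libraries were 18 and 23, within the 13 to 31 of the others. Without shG9a_4 replicates 1 and 3 the difference over all regions was −0.55. There 4 of 8 promoters passed (ODC1, PPAT/PAICS, ATIC and AMD1; limma adjusted p 0.0025 to 0.0404), against 38.5% of all regions. In that set 5 of 8 passed with shG9a_1 (51.9% of all regions) and 0 of 8 with shG9a_4 (1.64%; limma adjusted p 0.268 to 0.733, none at an unadjusted p under 0.05), where a single shG9a_4 library remained and was assumed to vary like the others. The share of depth in these differences was not tested further.

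Summit positions varied by 38 to 131 bp over the 8 libraries at every promoter other than TYMS, where the range was 784 bp. In the direction of the gene, the strongest summit lay 41 to 104 bp downstream of the start in CAD, 107 to 156 bp in ATIC and 856 to 944 bp in GART over the 8 libraries. In AMD1 it lay 625 to 719 bp downstream, and in SRM between −195 and −157, with −189 in shG9a_1 replicate 1. SRM had the tightest placement, a range of 38 bp. In ODC1 it lay 256 to 380 bp downstream, where shG9a_1 replicate 3 gave the 380 and the other 7 libraries lay at or under 297. In the PPAT/PAICS promoter it lay 730 to 774 bp from the start in the direction of PAICS. For IMPDH2, whose strand is not in the table used, the offset was −151 to −20 along the chromosome. TYMS was the most variable, from −118 to 666 bp.

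Set beside the sequences printed above, the SRM summits at −195 to −157 fell near the hexamer at −199, and the ODC1 summits near the hexamers 286 and 320 bases downstream of the first start. The ATIC summits lay 107 to 156 bp downstream of the hg19 start, and its hexamers begin at −46 and +30 from the GRCh38.p14 start. Their order along the DNA was not determined. The PPAT/PAICS summits, 730 to 774 bp from the start, were far from the printed hexamer at +41 of PAICS. The CAD summits lay 41 to 104 bp downstream of a start whose window did not hold CACGTG. That window ends 50 bases after its start, so the letters under most CAD summits were not searched. Summits are counted from hg19 starts and hexamers from GRCh38.p14 starts, and neither was converted, so these distances are set side by side only as a description. The GART and AMD1 summits, counted from the starts used here, lay beyond the 50 bases that a searched window covers after its start. GART and PAICS each have a further annotated start downstream (GRCh38.p14, chr21:33542117 and chr4:56436260), whose windows were also searched. Distances of the summits from these further starts were not determined.

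Peak shape at ODC1 differed between the groups, a pattern picked out after the values were seen. In each shSCR library the region was 1 peak of 1397, 1430 and 1345 bp. In each of the 5 shG9a libraries it was listed as 2 peaks, 1 around the summit downstream of the start and 1 with a summit at −504 to −418. The peaks covered 699 and 845 bp in shG9a_1 and 1066, 1072 and 1033 bp in shG9a_4, all less than in shSCR. A change from 1 peak in all 3 shSCR libraries to at least 2 in all 5 shG9a libraries occurred in 0.21% of the 5245 regions. Among the 84 regions with 1 peak of at least 1000 bp in every shSCR library it occurred in 9 (10.7%). PPAT/PAICS, also of that kind, was divided in 4 of 5 shG9a libraries and stayed whole in shG9a_1 replicate 3, and its added upstream summits lay at −220 to −172, with a further weak peak at −444 in shG9a_4 replicate 1. Covered length was lower in all 5 shG9a than in all 3 shSCR libraries at 2 of 8 promoters, ODC1 and SRM, against 29.6% of all regions. In SRM it was 1136, 1717 and 1343 bp in shSCR and 900, 1097, 499, 1108 and 1082 bp in shG9a. Over all regions the median covered length was 505 to 660 bp in shSCR and 314 to 456 bp in shG9a.

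By role, the polyamine gene ODC1 had the lowest difference of the 8 promoters in the contrast of the pooled hairpins with shSCR. SRM had the highest, at 0.1315, nearly level with the pyrimidine gene CAD at 0.1259, and AMD1 lay between SRM and ODC1. With quantile normalization CAD (0.132) stood above SRM (0.0937), so the highest place depended on the setting. This order is a description, since none of them passed the test and the genes were not tested against each other. The purine genes ran from −0.15 (PPAT/PAICS) to 0.11 (GART). In shSCR the strongest promoters by mean fold were ODC1, with a fold of 39.2 ± 12.6 (SD, n = 3), SRM at 38.4 ± 10.0, PPAT/PAICS at 38.1 ± 2.36 and ATIC at 32.7 ± 1.33, and the weakest was TYMS at 11.6 ± 1.57.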

How the data were processed

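Per the submitters' processing notes, the tools included MACS2 2.1.0 and STAR 2.5.2a (also Picard 2.7.1, and SAMtools 1.3), with hg19. Their roles and the caller's settings are not given in the sources used. The authors deposited 1 peak list per MYC library, with a score, a fold enrichment (ratio), and −log10 p-values and q-values at the summit; the score is 10 times the −log10 q with decimals dropped. The deposited summit offset gave summit positions. The 9 inputs were not analysed here.

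From the deposited fold and −log10 p, whole-number pileups were recovered for all peaks within 0.001, and the lowest local background shared by at least 1% of peaks served as library background. Relative depth is that background over the shortest peak, which was assumed to stand for fragment length. Peaks on chromosomes 1 to 22 and X (192 of 151062 left out) were merged at 1 bp overlap. Heights were fitted with limma 3.58.1 (trend, R 4.3.3, threshold 0.05), without shG9a_1 replicate 1, and checked on simulated data. All 10 genes are named, and p-values measure the spread between these libraries. Same-numbered replicates were not read as pairs. Members and lists were chosen with earlier results of these data known. Counts of other pathway genes were not run, since no annotation of the build was used here.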

Additional observations from a re-analysis of the deposited data

How the results depend on the processing

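All 9 promoters kept a peak in the 8 libraries with a window of 1 kb, with the summit inside the window, or with any 1 library left out. With a −log10 q of at least 5 or lists of equal length, 8 of 9 did. Kept promoters numbered 8 to 9 with 1 library left out.

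Numbers of regions lower and higher for both hairpins were 3747 and 0 without centring, 0 and 0 over local background, 5 and 20 of 7423 regions in at least 4 of 5 shG9a libraries, and 3 and 20 with the replicate block. In libraries of like depth, a setting chosen after the data were seen, they were 4 and 11 centred and 2018 and 1 without centring. For shG9a_1 these counts were 0 and 0 without centring, with quantile normalization or over local background, 3 and 4 in the wider set, 0 and 2 with the replicate block, 0 and 1 at like depth, and 2723 and 0 there without centring. For shG9a_4 they were 4383 and 0 without centring, 0 and 0 over local background, 4 and 27 with the replicate block, 0 and 1 at like depth, and 86 and 0 there without centring. For shG9a_1 less shG9a_4 they were 2 and 0 with the replicate block, 0 to 1 and 0 with 1 library left out, and 0 and 0 under the other settings. Promoters past the threshold numbered 8 (both), 0 (shG9a_1) and 8 (shG9a_4) without centring and 4, 5 and 0 at like depth without centring, and 0 under each centred setting run. Leaving out 1 library gave 0 to 8 lower and 4 to 42 higher regions for both hairpins, 0 to 4 and 0 to 13 for shG9a_1, 0 to 8 and 0 to 47 for shG9a_4, and no promoter in any. For both hairpins the count of lower regions was 0 without shSCR replicate 1, shSCR replicate 2 or shG9a_4 replicate 3, and that of higher regions was 42 without shSCR replicate 3 and 30 without shG9a_4 replicate 1.

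Signs turned as follows (log2, both hairpins unless named). Without centring CAD was −0.72, SRM −0.71, AMD1 −0.84, IMPDH2 −0.83 and GART −0.73, and in single hairpins CAD was −0.36 with shG9a_1 and AMD1 −0.81 with shG9a_4. At like depth without centring CAD was −0.42, SRM −0.40, AMD1 −0.62, IMPDH2 −0.44 and GART −0.32, with −0.36 for CAD in shG9a_1 and −0.37 for AMD1 in shG9a_4. Over local background SRM was −0.16, AMD1 −0.041, IMPDH2 −0.37 and ATIC 0.34, and ATIC was 0.054 with shG9a_4. AMD1 was −0.029 and IMPDH2 −0.021 in the wider set, AMD1 −0.079 at like depth, and IMPDH2 −0.015 with the replicate block. Leaving out 1 library gave −0.060 to 0.27 for CAD, −0.091 to 0.12 for AMD1, −0.12 to 0.13 for IMPDH2 and −0.018 to 0.21 for GART. ODC1 stayed at −0.43 to −0.26 there. Without centring the shift of all regions sets the sign, by construction. For the others the cause was not tested.

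Whether same-numbered libraries pair was not settled. Their deviations from the group mean correlated at −0.02 to 0.15, against −0.14 to 0.08 for others. Of 8 libraries, 6 correlated best with their own number. Deviations from the mean of so few libraries constrain these correlations, so small values cannot exclude pairing. The main fit took the libraries as unpaired, and counts with the replicate block are given above. Weaker binding than the caller listed is not covered, so an absent peak was not detectable at that library's depth.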
